A study of Mus musculus with 12 samples.

Results

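Antral and corpus stomach organoids were compared genome-wide after 24 h of Wnt inhibition. All 6 inhibited libraries of the 12 in the series were used, 3 from antrum and 3 from corpus, chosen by the region and treatment in their labels. Messenger RNA was sequenced from wild-type mouse organoids, epithelial cultures grown in Matrigel from isolated gastric glands. Each region had lines 8025, 8026 and 8028, which the labels call independent. Nothing in the labels says whether a number shared by the regions marks the same mouse, so the lines were taken as unpaired. The inhibited groups received XAV939, labelled as 1 mM, from day 4 after passage, with Noggin at 100 ng/mL and without added Wnt and R-spondin. The other 6 libraries, 3 a region, received DMSO as vehicle in normal medium with 50% L-WRN conditioned medium. Corpus organoids were grown in 20% fetal bovine serum and antral organoids in 10%, in both treatments. Region and serum therefore cannot be told apart in any difference below, nor can XAV939 and the change of medium. The labels used here state neither the age nor the sex of the mice.

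The corpus is the body of the stomach, whose glands hold acid-secreting parietal cells and enzyme-secreting chief cells. The antrum is its outlet end, with mucous glands and gastrin-secreting cells. Wnt signals maintain gland stem and progenitor cells, and XAV939 blocks tankyrase, so that Axin accumulates and Wnt signalling falls. Homeobox transcription factors mark position along the gut: Pdx1 and Nkx6-3 are known from the antrum, and members of the Iroquois family (Irx) from the anterior stomach.

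Before the regions are compared, 1 library has to be described. The inhibited library labelled corpus line 8028 stood apart from the other corpus libraries. On the first principal component of the 6 profiles, which held 47.8% of the variance, corpus lines 8025 and 8026 lay at -49.4 and -33.9, whereas corpus line 8028 lay at 28.3. The antral libraries lay at 5.6, 32 and 17.4. On the second component, which held 17.2%, corpus line 8028 lay at -36.0, against 1.97 and -10.3 for the other corpus libraries and 13.5 to 17.1 for the antral ones, so it was not within the antral libraries on both components. The root mean square log2 distance of corpus line 8028 over 16152 genes was 0.613 and 0.695 to the other corpus libraries and 0.470 to 0.498 to the antral ones. The other 2 corpus libraries were 0.448 apart, and the antral ones 0.420 to 0.438 apart. In vehicle the library of that line was 0.469 and 0.480 from the other corpus libraries and 0.491 to 0.539 from the antral ones. Both libraries labelled corpus line 8028 were also the nearest of the corpus to antrum in Nkx6-3, Nkx6-2, Pdx1, Irx5, Irx2 and Irx3, described below. In Irx5, Irx2 and Irx3 both stayed above every antral library of the same treatment. Whether their label is right was not tested, and directions below rest on it as given. Results are given with this library and, where it bears on them, without it. Because the library is singled out by its own expression profile, values without it are a description, not a second test. Totals of the 6 inhibited libraries were 24434807 to 29596913 counts. In these, 3 counts equalled 0.106 to 0.128 CPM (read counts scaled to a common library total, with TMM factors). Replicate libraries differed beyond sampling noise in every pair, at a chi-square per degree of freedom of 10.0 to 75.7.

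**Figure D1:**
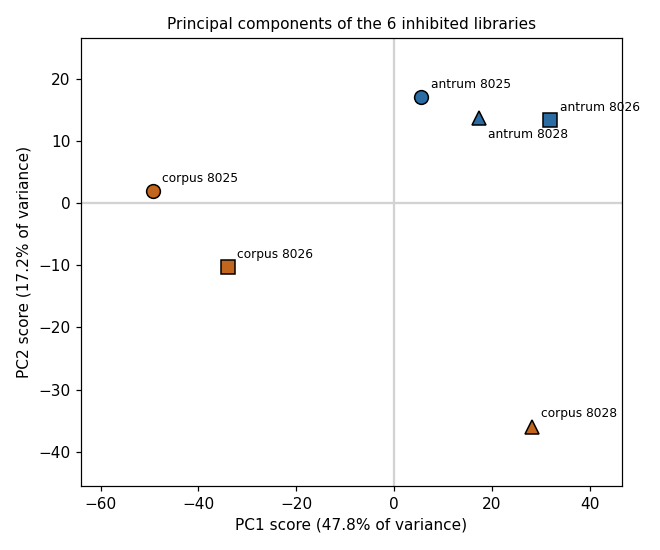
Scores of the 6 inhibited libraries on the first and second principal components of log2 CPM, with orange for corpus and blue for antrum. Corpus lines 8025 and 8026 lie at -49.4 and -33.9 on the first component, and corpus line 8028 at 28.3, within the span of the antral libraries (5.6 to 32). On the second component it lies at -36.0, apart from the antral libraries at 13.5 to 17.1.

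Iroquois genes and a neighbouring noncoding RNA separated corpus from antrum. Irx5 is a homeobox transcription factor on chromosome 8 of GRCm38 (92357625 to 92376286, plus strand, protein-coding). Crnde, a long noncoding RNA gene (92326033 to 92356120, minus strand), is transcribed away from it, with the annotated 5′ ends 1505 bases apart. Irx3 lies on the same chromosome at 91798525 to 91802067 on the minus strand, and Irx2 on chromosome 13 at 72628820 to 72634198 on the plus strand. Counts are sums over each whole gene. The start regions of the 3 genes for which RefSeq windows were at hand are shown because these genes stood higher in corpus together. Each window runs from 250 bases before to 50 after the RefSeq start on the gene's own strand, at chr13:72628570-72628869 (plus) for Irx2, chr8:91801605-91801904 (minus) for Irx3 and chr8:92356071-92356370 (minus) for Crnde, on GRCm38.p6. Capitals mark GGGCGG, the core of a GC box, on either strand.
Irx2: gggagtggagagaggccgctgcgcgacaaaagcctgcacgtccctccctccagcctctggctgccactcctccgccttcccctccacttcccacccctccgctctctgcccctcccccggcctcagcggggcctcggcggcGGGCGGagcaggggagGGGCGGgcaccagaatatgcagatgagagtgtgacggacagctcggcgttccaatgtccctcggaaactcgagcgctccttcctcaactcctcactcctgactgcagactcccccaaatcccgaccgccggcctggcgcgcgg
Irx3: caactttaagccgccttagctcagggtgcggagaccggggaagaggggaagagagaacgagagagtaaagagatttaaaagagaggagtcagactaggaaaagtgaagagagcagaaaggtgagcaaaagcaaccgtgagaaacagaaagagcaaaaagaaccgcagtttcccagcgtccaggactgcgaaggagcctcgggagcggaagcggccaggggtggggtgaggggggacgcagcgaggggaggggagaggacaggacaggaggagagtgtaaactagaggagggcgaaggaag
Crnde: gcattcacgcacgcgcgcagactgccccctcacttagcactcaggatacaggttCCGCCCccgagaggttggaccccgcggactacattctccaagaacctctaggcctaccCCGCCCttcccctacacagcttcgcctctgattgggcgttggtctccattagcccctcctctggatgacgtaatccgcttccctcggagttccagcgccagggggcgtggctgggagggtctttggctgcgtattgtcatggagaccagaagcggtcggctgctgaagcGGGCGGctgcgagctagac
The GC-box core occurred 2 times in the Irx2 window, 3 times in the Crnde window and 0 times in the Irx3 window, and 35.7% of 32851 RefSeq windows of the same length held it at least once. The homeodomain core TAATTA, which reads alike on both strands, was in 5.29% of all windows and in 0 of these 3. The windows held 25 CG dinucleotides for Irx2, 14 for Irx3 and 22 for Crnde, against a median of 7 over all windows.

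Irx5 was read at 13.7, 13.2 and 2.56 CPM in corpus lines 8025, 8026 and 8028, and at 0, 0.0373 and 0 CPM in the antral lines. In counts these were 332, 309 and 68 against 0, 1 and 0. All corpus libraries lay above all antral ones, and line 8028 was the lowest of the corpus. The depth-corrected ratio of the summed counts, corpus over antrum, was 772, with a 95% exact counting interval of 138 to 30528. The ratio rests on 1 antral count, and with the antral sum set to 3 counts the ratio was 257. Its interval covers counting error only and leaves out the spread between lines. PCR copies are not independent molecules, so even the counting error may be larger. Irx5 passed edgeR's quasi-likelihood test over all genes (Benjamini-Hochberg adjusted p 0.0423).

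Irx2 stood at 4.49, 5.35 and 0.489 CPM in corpus and at 0.0704, 0.0373 and 0 CPM in antrum. Its summed counts were 247 and 3, a ratio of 89.6 (95% exact counting interval 30.3 to 438). Crnde stood at 2.35, 2.44 and 0.489 CPM against 0.0704, 0 and 0.0391 CPM, or 127 counts and 3, a ratio of 46.1 (15.4 to 226). For both genes the groups did not overlap, and corpus line 8028 was again the lowest corpus library. Irx3 stood at 5.11, 2.87 and 1.69 CPM against 0.634, 0.373 and 0.469 CPM, a difference on the log2 scale, antrum minus corpus, of -2.69 (standard error, SE, 0.530). These 3 genes did not pass the test with all libraries (edgeR adjusted p 0.278 for Irx2, 0.108 for Crnde and 0.145 for Irx3). Without corpus line 8028 they did (0.0232, 0.00435 and 0.0123), and DESeq2 called Irx2 and Irx3 with all libraries (0.00263 and 0.000321). The table does not state whether counting used strand, so reads of Crnde or Irx3 cannot be told apart from those of genes overlapping them on the other strand. Irx1 had 0 counts in all 6 libraries.

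Vehicle libraries showed the same arrangement. Irx5 was at 12.9, 10.7 and 2.13 CPM in corpus and at 0, 0.0330 and 0.125 CPM in antrum (edgeR adjusted p 0.0458), and Crnde at 4.36, 3.51 and 1.20 CPM against 0.177, 0.0659 and 0.0417 CPM (0.0458). Irx2, at 8.24, 6.41 and 0.832 CPM against 0 in all antral libraries, and Irx3, at 5.99, 3.95 and 2.16 CPM against 0.649, 0.362 and 1.0 CPM, did not pass (0.0876 and 0.0748). Vehicle corpus line 8028 was thus the lowest corpus library for each of these genes as well.

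Nkx6-3, a homeobox factor of the antrum, showed the reverse arrangement, with 1 corpus line apart. Its level was 103, 119 and 107 CPM in antral lines 8025, 8026 and 8028, and 0.247, 3.08 and 82.5 CPM in corpus. The groups did not overlap, but corpus line 8028 lay near the antral level and far above both other corpus lines. The log2 difference was 1.93 (SE 1.45) and did not pass (edgeR adjusted p 0.679, 0.0818 without corpus line 8028, and 0.00247 without both the inhibited and the vehicle library of that line). Nkx6-2, a related factor that had been listed among corpus genes, went against that list, at 16.4, 25.9 and 24.9 CPM in antrum and 0.0412, 4.67 and 19.1 CPM in corpus. In vehicle Nkx6-3 stood at 66.5, 70.1 and 61.5 CPM in antrum and 0.296, 1.24 and 48.7 CPM in corpus, so that line 8028 was apart there too.

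Pdx1, which is needed for normal antral and pancreatic development, was at 43.5, 44.7 and 47.9 CPM in antrum and 28.4, 31.3 and 41.9 CPM in corpus. The antral libraries lay above the corpus ones by a narrow margin, with a log2 difference of 0.42 (SE 0.146; edgeR adjusted p 0.437, and 0.0209 without corpus line 8028). Over the 4 measured antral identity genes, the others being Onecut2 and Isl1, 0 were called and 2 had an antral range above the corpus range. Of the 4, 3 had a positive difference. Isl1 went against the list, with 17, 37 and 6 counts in corpus and 15, 3 and 1 in antrum, and its groups overlapped. Of 6 measured corpus identity genes 1 was called and 4 had a corpus range above the antral one. Across all 16152 genes the corpus range lay above in 5.06% and the antral range in 6.71%. Gast, the gastrin gene of antral endocrine cells, had 0, 0 and 0 counts in corpus and 0, 3 and 2 in antrum. Sst, which encodes somatostatin, had 4, 1 and 5 counts against 0, 4 and 3. Neither endocrine gene was tested, and no difference was detectable at this depth.

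**Figure D2:**
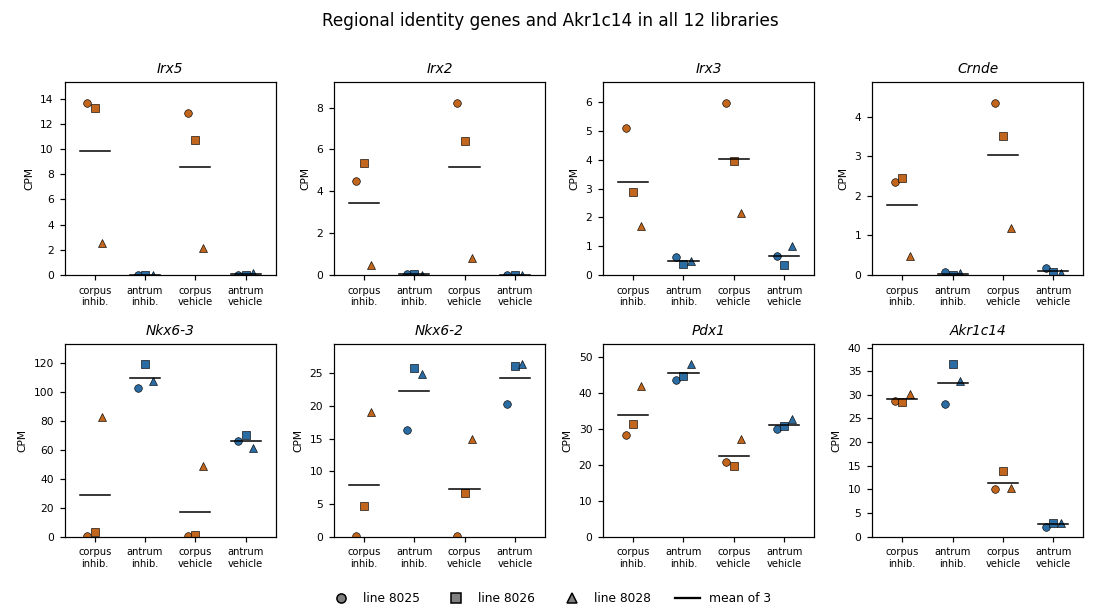
CPM of 7 regional genes and Akr1c14 in all 12 libraries, with each symbol a library, its shape the line and the bar the mean of 3. Corpus line 8028 (triangles) is the lowest corpus library for Irx5, Irx2, Irx3 and Crnde and the highest for Nkx6-3, Nkx6-2 and Pdx1 in both treatments.

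Over the whole transcriptome, edgeR's adjusted p was below 0.05 for 10 of the 16152 genes tested after Wnt inhibition, or 0.0619%. Of these, 8 were higher in antrum (0.0495%) and 2 higher in corpus (0.0124%). Without adjustment 1493 genes had a p below 0.05, and the median log2 difference of all genes was 0.006. The groups of all 10 called genes did not overlap. Leaving out corpus line 8028 raised the count to 1883, of which 1227 (7.42%) were higher in antrum and 656 (3.97%) in corpus, and all 10 genes were among them. Leaving out any 1 of the other 5 inhibited libraries left 0 or 1 calls and none of the 10, and the fit of only the 6 inhibited libraries gave 0 (997 at an unadjusted p below 0.05). DESeq2 called 149.

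Clca1 had the largest difference among the 8 antral calls. It encodes a secreted protein of intestinal goblet cells that modulates chloride conductance (chromosome 3, 145003817 to 145032776, minus strand). It was read at 214, 278 and 237 CPM in antral lines 8025, 8026 and 8028 and at 20.1, 16.4 and 50.8 CPM in corpus. The lowest antral library held over 4 times the highest corpus library, which was again line 8028. The difference was 8.32-fold, or 3.06 on the log2 scale (SE 0.406; edgeR adjusted p 0.0423). In vehicle the gene was low in both regions, at 5.72, 7.35 and 12.2 CPM in antrum and 1.13, 1.69 and 2.63 CPM in corpus (adjusted p 0.0963). Of the other Clca genes, Clca3b stood at a log2 difference of 1.20, Clca3a1 at 0.31 and Clca2 at -0.17, and none of these 3 passed (adjusted p 0.536, 0.763 and 0.872).

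Of the other antral calls, 4 are described first. Fes, a cytoplasmic tyrosine kinase (chromosome 7, 80377756 to 80387946, minus strand), was at 4.01, 6.79 and 4.85 CPM in antrum and 1.36, 0.856 and 1.47 CPM in corpus. Sema4g, a transmembrane semaphorin (chromosome 19, 44989101 to 45003397, plus strand), was at 58.8, 66.9 and 71.0 CPM against 29.8, 21.0 and 17.8 CPM. The antral libraries lay above the corpus ones in both, with corpus line 8028 near the other corpus lines for Fes and lowest for Sema4g. The log2 differences were 2.08 (SE 0.277) for Fes and 1.52 (SE 0.220) for Sema4g. Mcf2l, a guanine nucleotide exchange factor (chromosome 8, 12873806 to 13020905, plus strand), was at 22.3, 20.9 and 24.7 CPM in antrum and 8.20, 7.41 and 12.6 CPM in corpus. Rgs17, which limits G protein signalling (chromosome 10, 5825663 to 5922400, minus strand), was at 14.6, 14.0 and 13.3 CPM against 4.95, 5.35 and 7.45 CPM. In these 2 genes corpus line 8028 was the corpus library closest to antrum. The log2 differences were 1.27 (SE 0.18) for Mcf2l and 1.24 (SE 0.156) for Rgs17, and all 4 genes had an edgeR adjusted p of 0.0423.

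The remaining antral calls were small and tight. Zfp239, a zinc finger protein gene (chromosome 6, 117862100 to 117873291, plus strand), was at 5.39, 5.93 and 7.12 CPM in antrum and 2.64, 2.95 and 2.67 CPM in corpus, a log2 difference of 1.16 (SE 0.161). Plekhd1, which encodes a pleckstrin homology domain protein (chromosome 12, 80692591 to 80724214, plus strand), was at 11.2, 10.0 and 8.91 CPM against 5.81, 5.31 and 5.0 CPM, a difference of 0.91 (SE 0.134). Tspan13, a tetraspanin membrane protein gene (chromosome 12, 36014557 to 36042500, minus strand), was at 89.3, 74.8 and 84.2 CPM against 56.6, 57.3 and 59.0 CPM, a difference of 0.52 (SE 0.076). In these 3 genes corpus line 8028 lay with the other corpus lines, and the corpus spread was small beside the gap. The edgeR adjusted p was 0.0423 for Zfp239 and Tspan13 and 0.0446 for Plekhd1.

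Beside Irx5, the corpus call was Sh3bp1, a GTPase-activating protein for Rac (chromosome 15, 78899768 to 78912051, plus strand). It was at 34.5, 35.7 and 23.8 CPM in corpus and 15.1, 14.0 and 12.5 CPM in antrum. All corpus libraries lay above the antral ones, with line 8028 the lowest of them. The log2 difference was -1.17 (SE 0.158; edgeR adjusted p 0.0423). In vehicle Sh3bp1 stood at 35.9, 39.3 and 30.3 CPM against 15.6, 13.4 and 16.2 CPM.

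**Figure D3:**
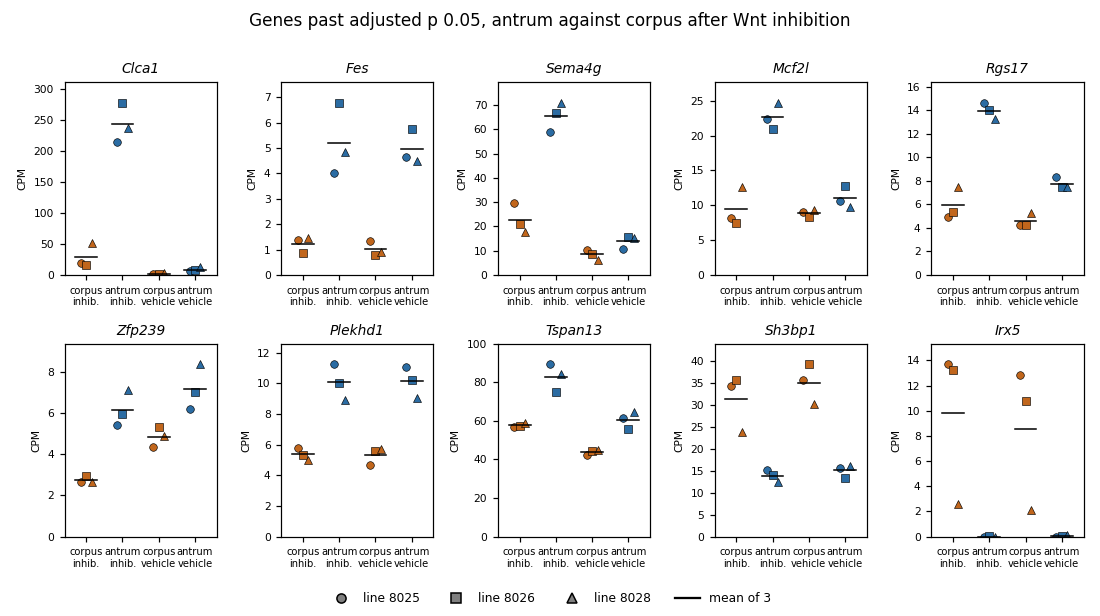
CPM of the 10 genes past an adjusted p of 0.05, in all 12 libraries, with orange for corpus, blue for antrum, shapes for lines and bars for the mean of 3. In the inhibited libraries the antral and corpus points do not overlap in any of the 10 panels, and Clca1 and Sema4g are far lower in vehicle than after inhibition.

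The regional differences in vehicle had the same sign for all 10 genes, and their vehicle groups did not overlap either. Some gaps were narrow. The highest vehicle corpus library was at 9.39 CPM for Mcf2l and 10.4 CPM for Sema4g, and the lowest antral one at 9.77 and 10.8 CPM. What share of all genes had the same sign, or groups without overlap in vehicle, was not counted. In vehicle 32 genes were called (0.198%), 11 higher in antrum and 21 in corpus. Shared by both treatments were 3 antral calls, Fes, Plekhd1 and Tspan13, and 2 corpus calls, Irx5 and Sh3bp1, or 50% of the inhibited calls and 15.6% of the vehicle calls. The libraries differ but come from the same lines, so the vehicle values do not stand apart from the inhibited ones. Across the 16152 genes, which are not independent replicates, the regional differences with and without inhibition correlated with r = 0.522 and rho = 0.515.

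A test of the difference between treatments, the region by treatment interaction, called 1 gene of 16152 (0.00619%; 638 at an unadjusted p below 0.05). This was Akr1c14, an aldo-keto reductase that acts on steroids (chromosome 13, 4049011 to 4090688, plus strand). In vehicle it was at 10.0, 14.0 and 10.3 CPM in corpus and 2.01, 2.93 and 2.88 CPM in antrum, so corpus lay far above. After inhibition it was at 28.7, 28.4 and 30.1 CPM in corpus and 28.0, 36.4 and 32.8 CPM in antrum, and the groups overlapped. The vehicle difference was -2.11 (SE 0.173; edgeR adjusted p 0.00119) and the inhibited one 0.16 (SE 0.147; 0.722). The interaction was 2.27 on the log2 scale (SE 0.227; adjusted p 0.00963, and 0.0689 without inhibited corpus line 8026). Reads of this gene can be shared with close relatives in the Akr1c family, so its level is uncertain. None of the 10 regional calls passed the interaction test; Mcf2l stood at 0.95 (SE 0.254) and Sema4g at 0.80 (SE 0.315).

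Among genes of mature gastric cells, 0 were called in any of the lists for surface mucous pit (11 measured), mucous neck and gland (8), chief (4) and parietal (9) cells. Over all genes 0.0619% were called. The antral range lay above in 3, 2, 1 and 2 members of these lists (27.3%, 25%, 25% and 22.2%, against 6.71% of all genes). The corpus range lay above in 0, 1, 0 and 1 (against 5.06%). The pit count of 3 depended on scaling. It was 1 with upper quartile scaling (9.09%, against 5.67% of all genes) and 4 with total counts (36.4%, against 6.03%). The median log2 differences of the 4 lists were 0.20, 0.25, 0.25 and -0.0009 after inhibition. In vehicle they were all negative, at -0.25, -0.33, -0.65 and -0.32. In bulk RNA fewer cells of a type and less RNA per cell cannot be told apart. Muc6, the mucin of deep gland cells, was at 42.0, 19.1 and 36.6 CPM in antrum and 7.83, 15.2 and 14.0 CPM in corpus. Gkn3, a gastrokine of the gland neck, was at 586, 384 and 488 CPM against 284, 237 and 275 CPM. The antral libraries were above in both, but neither passed (log2 differences 1.40, SE 0.354, and 0.87, SE 0.194; edgeR adjusted p 0.299 and 0.202). Gkn3 passed without corpus line 8028 (0.0370), and Muc6 did not (0.0747), whereas DESeq2 called both with all libraries (0.00263 and 0.00497).

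Muc5ac, the surface mucin, was at 72.6, 26.2 and 28.5 CPM in corpus against 60.8, 103 and 32.6 CPM in antrum, and Tff2, a trefoil peptide gene of neck cells, at 715, 642 and 1130.5 CPM against 1049, 831 and 1457 CPM. The groups overlapped in both genes. Cblif, which encodes gastric intrinsic factor, was at 4.66, 4.49 and 4.74 CPM in corpus and 5.18, 6.38 and 2.11 CPM in antrum. The pepsinogen gene Pgc was at 15.3, 11.6 and 12.2 CPM against 19.4, 27.5 and 8.72 CPM. Atp4a, the proton pump subunit that defines parietal cells, stayed below 1 CPM in every inhibited library. None of these 5 passed (edgeR adjusted p 0.655 to 0.993). For Cblif the vehicle level differed more, at 192, 173 and 68.9 CPM in corpus and 49.8, 32.9 and 61.4 CPM in antrum, with corpus line 8028 again the lowest, and did not pass there either (0.11).

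Of 24 measured gastric and foregut transcription factors 0 were called with all libraries, and the median log2 difference was 0.07. The antral range lay above in 5 (20.8%, against 6.71% of all genes) and the corpus range in 0 (against 5.06%). Without corpus line 8028, 4 were higher in antrum and 2 in corpus, against 7.42% and 3.97% of all genes. Sox2 was at 16.5, 18.0 and 16.1 CPM in corpus and 13.9, 17.5 and 16.4 CPM in antrum, and Gata4 at 137, 141 and 114 CPM against 112, 116 and 120 CPM. Both factors overlapped between groups. Spdef, a factor of mucous and goblet cells, was among the 5 with an antral range above, at 35.2, 37.1 and 37.2 CPM against 26.3, 28.4 and 30.8 CPM (log2 difference 0.36, SE 0.074; edgeR adjusted p 0.168, and 0.0151 without corpus line 8028). Of the HOX genes in the table, 39 in all, 0 reached the count needed for testing and 31 had 0 counts in all 6 libraries.

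Intestinal genes tended to be read higher in antrum, with 1 call. Of 14 measured members Clca1 was called and 10 had a positive difference, so the tendency did not hold for all. The antral range lay above the corpus range in 6 (against 6.71% of all genes), and the reverse held in 0 (against 5.06%). The median log2 difference was 0.64 against 0.006 over all genes. Tff3, the goblet cell trefoil peptide, was at 7.25, 17.6 and 8.45 CPM in antrum and 1.73, 1.71 and 4.10 CPM in corpus (log2 difference 2.13, SE 0.474; edgeR adjusted p 0.202, and 0.0173 without corpus line 8028). Rbp2, which binds retinol in enterocytes, was at 7.89, 10.5 and 9.11 CPM against 2.72, 2.23 and 7.67 CPM. In both genes the groups did not overlap and corpus line 8028 was the highest corpus library. Fcgbp, a mucus protein, stood at 9.47, 50.8 and 18.3 CPM in antrum and 1.07, 1.20 and 13.7 CPM in corpus, and overlapped because of line 8028. Cdx2, the homeobox factor that specifies intestine, was at 30.3, 39.4 and 33.9 CPM in antrum and 17.6, 19.7 and 44.9 CPM in corpus, so its highest library was a corpus one. Muc2, the main intestinal mucin, stayed between 1.54 and 2.87 CPM in all 6 libraries. Reg3g had 434, 353 and 275 counts in corpus and 385, 244 and 394 in antrum, and overlapped. Without corpus line 8028, 6 of 15 measured members were higher in antrum (against 7.42% of all genes), among them Fcgbp (adjusted p 0.0208), Agr2 (0.0449) and Rbp2 (0.00832).

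Cholesterol synthesis genes were read slightly higher in antrum almost throughout. Of 25 measured members 0 were called, while 21 had an antral range above the corpus range, against 6.71% of all genes, and 0 the reverse. The median log2 difference was 0.29, against 0.006 over all genes. Nsdhl, a sterol dehydrogenase of the later steps, was at 91.9, 89.3 and 90.1 CPM in antrum and 74.5, 72.3 and 67.9 CPM in corpus. Idi1, an isomerase of the pathway, was at 298, 277 and 278 CPM against 211, 210 and 238 CPM. Both genes differed by a small step that was larger than the spread within either region, 0.34 (SE 0.08) and 0.37 (SE 0.089) on the log2 scale, and neither passed (edgeR adjusted p 0.25 for each).

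Fdps, which makes farnesyl diphosphate, was at 403, 397 and 395 CPM in antrum and 331, 327 and 311 CPM in corpus, with very little spread within each region. Its difference was 0.30 (SE 0.076; edgeR adjusted p 0.288). Srebf2, the master regulator of the pathway, differed by 0.01 (SE 0.056), with 351, 351 and 350 CPM in antrum and 349, 361 and 332 CPM in corpus. The feedback gene Insig1 was the 1 member with a negative difference (-0.19, SE 0.219).

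In vehicle the cholesterol list had a median log2 difference of 0.38, and 2 members were called, among them Fdps (0.55, SE 0.076; edgeR adjusted p 0.0304). Without corpus line 8028, 9 of 25 passed after inhibition, all higher in antrum (against 7.42% of all genes), including Idi1 (0.0247) and Nsdhl (0.0476). With RLE, upper quartile and total-count scaling, 23 or 24 members kept a positive difference and 19 to 22 had an antral range above. The growth medium held 10% serum for antrum and 20% for corpus, and region and serum cannot be told apart here. Of 24 measured fatty acid genes 0 were called, 8 had an antral range above (33.3%, against 6.71% of all genes) and 1 a corpus range above (4.17%, against 5.06%).

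**Figure D4:**
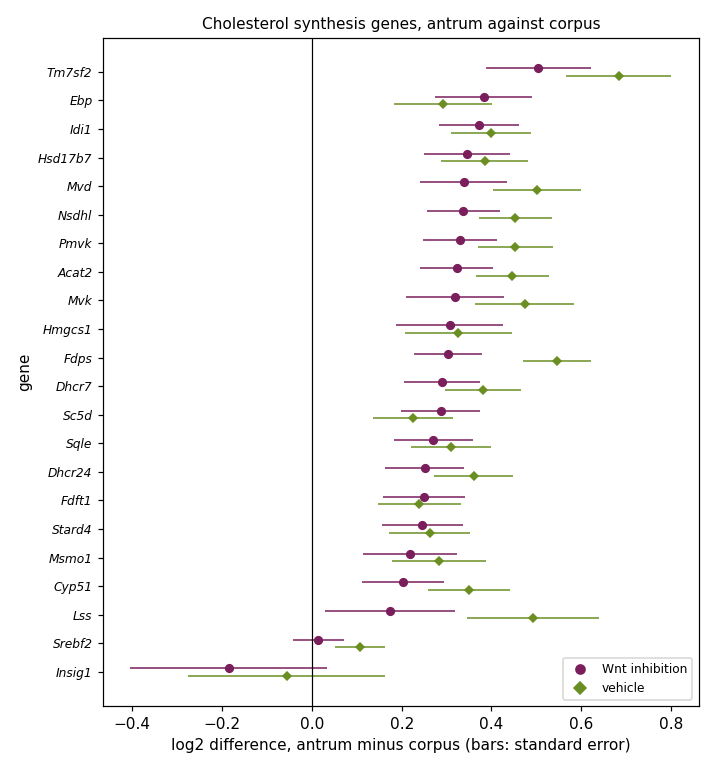
Log2 difference between antrum and corpus for 22 of the 25 cholesterol synthesis genes, with standard errors, after Wnt inhibition (circles) and in vehicle (diamonds). After inhibition 21 of the 22 lie above 0, and Insig1 lies at -0.19.

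Several Wnt target genes divided the corpus lines. Axin2, a feedback inhibitor of the pathway, was at 11.5, 14.3 and 11.3 CPM in antrum and 3.71, 5.39 and 18.7 CPM in corpus, so the highest and the lowest libraries were both corpus. Lgr5, the R-spondin receptor of stem cells, was low throughout, from 0.206 to 1.83 CPM. Cd44, a Wnt target and progenitor marker, was at 153, 151 and 151 CPM in antrum and 66.0, 70.2 and 163 CPM in corpus, and Sox9 at 36.4, 42.7 and 38.8 CPM against 17.6, 19.7 and 44.8 CPM. Corpus line 8028 thus exceeded every antral library in Axin2, Cd44 and Sox9, and lines 8025 and 8026 lay below every one. Other targets lay above in antrum without overlap. Sp5, a transcription factor induced by Wnt, was at 7.15, 6.45 and 6.80 CPM in antrum and 3.83, 4.32 and 5.94 CPM in corpus (log2 difference 0.53, SE 0.204; edgeR adjusted p 0.472). Apcdd1, a Wnt inhibitor, was at 0.352, 0.373 and 0.469 CPM against 0.0412, 0.0856 and 0.188 CPM, or 10, 10 and 12 counts against 1, 2 and 5 (adjusted p 0.307). In all, the antral range lay above in 3 of the 20 measured Wnt targets (15%, against 6.71% of all genes) and the corpus range in 0 (against 5.06%), and 18 had a positive difference. Of the 20, 0 were called with all libraries (median log2 difference 0.51), and 10 were higher in antrum without corpus line 8028, against 7.42% of all genes. That library had the highest summed level of Wnt targets, so the count without it follows in part from leaving it out.

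Proliferation genes were likewise highest in corpus line 8028 by their sum. Mki67, a marker of cycling cells, was at 240, 324 and 252 CPM in antrum and 131, 189 and 314 CPM in corpus. The summed level of the 31 proliferation genes was 2377, 3166 and 2485 CPM in antrum and 1311, 1781 and 3463 CPM in corpus. With all libraries 0 of 31 were called (median 0.29), and 30 of 31 were higher in antrum without corpus line 8028, against 7.42% of all genes. That library had the highest sum, so the count without it follows in part from leaving it out and is no separate support. Of 17 measured stem and progenitor genes 0 were called with all libraries, against 0.0619% of all genes. Without corpus line 8028, 6 were higher in antrum, against 7.42% of all genes. Members such as Lgr5, Axin2, Cd44 and Sox9 are also in the Wnt target list, so these lists are not separate observations.

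Glycolysis and hypoxia genes were arranged the other way round. Gapdh was at 4280.1, 4037 and 4237 CPM in antrum and 6484, 6495 and 3967 CPM in corpus, and Car9, a hypoxia-induced carbonic anhydrase, at 290, 234 and 203 CPM against 520, 486 and 282 CPM. Lines 8025 and 8026 of corpus lay above every antral library, and corpus line 8028 lay within or below the antral range. Of 19 measured members 0 were called (median -0.25), and 10 were higher in corpus without corpus line 8028, against 3.97% of all genes. Their summed level was 17687, 16789 and 17453 CPM in antrum and 23445, 23638 and 16026 CPM in corpus. Corpus line 8028 had the lowest sum, so the count without it follows in part from leaving it out.

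**Figure D5:**
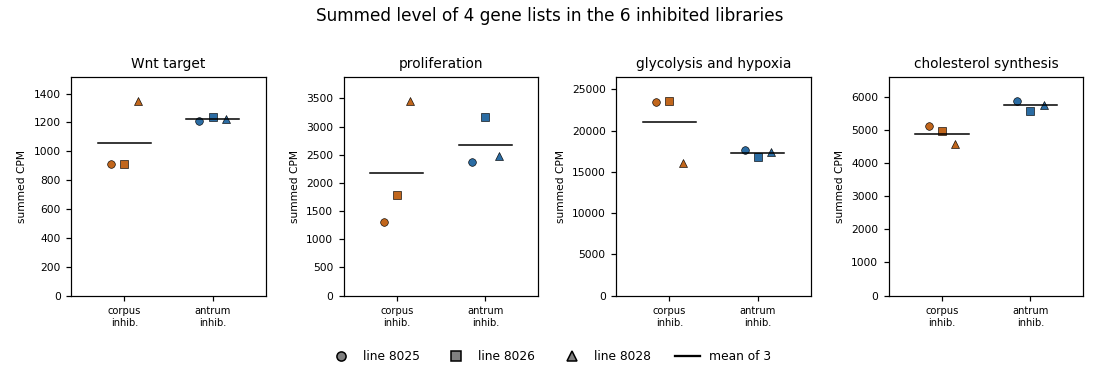
Summed CPM of 4 gene lists in the 6 inhibited libraries, with shapes for lines and bars for the mean of 3. Corpus line 8028 (triangle) is the highest library for Wnt targets and proliferation and the lowest for glycolysis and hypoxia, whereas the cholesterol sums do not overlap between regions.

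Of 26 measured retinoid genes 0 were called. The antral range lay above in 6 (23.1%, against 6.71% of all genes) and the corpus range in 1 (3.85%, against 5.06%), with a median log2 difference of -0.06. Adh1, an alcohol dehydrogenase that oxidizes retinol, was at 47.9, 33.6 and 55.2 CPM in antrum and 25.3, 26.8 and 21.8 CPM in corpus, without overlap (log2 difference 0.89, SE 0.273; edgeR adjusted p 0.384). Aldh1a1, which makes retinoic acid, was at 166, 132 and 87.3 CPM in corpus and 81.6, 85.3 and 91.9 CPM in antrum. Corpus line 8028 lay within the antral range, and the other 2 corpus lines lay above it (log2 difference -0.57, SE 0.171; edgeR adjusted p 0.360, and 0.00206 without that library). Aldh1a7 is nearly identical in sequence, so the split of reads between it and Aldh1a1 is uncertain. Rarb, a retinoic acid receptor and itself a retinoid target, had 75 counts in corpus and 7 in antrum, a ratio of 11.7 (95% exact counting interval 5.39 to 30.0). It stood at 1.07, 1.46 and 0.564 CPM against 0.141, 0 and 0.117 CPM, without overlap (adjusted p 0.163, and 0.0162 without corpus line 8028). Aldh1a3, another enzyme that makes retinoic acid, was at 19.3, 18.8 and 7.94 CPM in corpus and 16.2, 9.51 and 7.62 CPM in antrum, and Adh7, which oxidizes retinol, at 353, 324 and 235 CPM against 251, 319 and 289 CPM. Stra6, the retinol uptake receptor, was at 13.8, 13.8 and 14.4 CPM in corpus and 16, 8.43 and 13.8 CPM in antrum, and the groups of these 3 genes overlapped.

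Among 15 measured genes of the bone morphogenetic protein pathway, which Noggin blocks, 0 were called. The corpus range lay above in 3 members (20%, against 5.06% of all genes) and the antral range in 1 (6.67%, against 6.71%). With RLE or upper quartile scaling the 3 became 2 (13.3%, against 4.36% and 5.77% of all genes). Id2, a target of the pathway, was among the 3, at 112, 111 and 97.7 CPM in corpus and 82.9, 79.6 and 76.0 CPM in antrum (log2 difference -0.43, SE 0.089; edgeR adjusted p 0.168, and 0.0162 without corpus line 8028). Id1 of the same list had 2326, 2386 and 3357 counts in corpus and 2680, 2889 and 2392 in antrum, and overlapped. Of 18 immediate early genes 0 were called and 5 had an antral range above (27.8%, against 6.71% of all genes). Fos, a transcription factor subunit induced by growth factors, was at 92.9, 89.5 and 87.9 CPM in antrum and 59.7, 65.7 and 75.4 CPM in corpus, without overlap (0.43, SE 0.093; adjusted p 0.192). Cyp1a1, which the aryl hydrocarbon receptor induces, was at 32.8, 50.2 and 42.6 CPM in antrum and 20.9, 35.6 and 50.8 CPM in corpus, and overlapped.

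The labelled cell type was checked on marker genes. The 11 epithelial markers summed to 19801 to 22368 CPM in antrum and 19940 to 21520 CPM in corpus. Stromal markers, 14 in all, summed to 0.469 to 0.810 CPM in antrum and 0.942 to 1.54 CPM in corpus. Endothelial markers, 7 in all, summed to 3.64 to 6.44 and 8.46 to 11.5 CPM, and 10 immune markers to 68.2 to 85.9 and 56.1 to 122 CPM. The collagen gene Col1a1 had 6 to 21 counts per library, the endothelial marker Pecam1 8 to 22 and the pan-leukocyte marker Ptprc 8 to 22. The stromal genes Dcn and Barx1, the endothelial gene Emcn and the immune genes Cd79a, Adgre1 and Lyz2 had 0 counts in all 6 libraries. Stromal and endothelial sums were low throughout but did not overlap between the regions, and their part in the results was not tested. Tek was the largest member of the endothelial sum in every library, at 249, 207 and 186 counts in corpus and 156, 120 and 46 in antrum. The groups of Pecam1 and Vwf overlapped, so the endothelial difference rested largely on Tek. Cd68 and Cd14 were the largest members of the immune sum. The rRNA-like genes took 1.77% to 3.45% of counts in antrum and 1.16% to 2.7% in corpus. In vehicle they took 17.2%, 0.920% and 6.87% in antral lines 8025, 8026 and 8028, and 0.839% to 1.44% in corpus. Vehicle antral line 8025 also had the lowest total of the series, 18858022 counts. What this did to the vehicle and interaction values was not tested.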

How the data were processed

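Polyadenylated RNA was sequenced from 12 organoid libraries. The authors deposited 1 table of expected counts by gene, all of them whole numbers; per the submitters' processing notes the tools were cutadapt 2.3, FastQC 0.11.8, STAR 2.7.8a and RSEM 1.3.3, with the GRCm38 mouse genome. No source used here gives the tool settings, annotation release or strand setting. Transgene rows (5) were left out. Groups follow the sample labels. Replicates are lines labelled as independent.

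Counts were tested with edgeR 4.0.16 in R 4.3.3 (TMM scaling, filterByExpr by group, robust quasi-likelihood fit of all 12 libraries, 8 residual degrees of freedom, two-sided, Benjamini-Hochberg adjusted p below 0.05 over 16152 genes). CPM use TMM-scaled totals, and principal components log2 CPM with a prior count of 2. Ratios of summed counts carry exact binomial intervals for counting error only, which leave out the spread between lines. The test was checked on simulated data. DESeq2 1.42.0, other scalings, filters, a block on the line and left-out libraries were alternatives. Positions are from GENCODE M21 and promoter windows from RefSeq, both on GRCm38; windows matched 10 of 13 genes looked for.

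Genes were named when among the 15 largest differences a direction with an adjusted p below 0.05, at least 5 CPM in the higher group and groups that do not overlap; when on a fixed list of regional, lineage and retinoid genes; when among up to 4 called members of a gene list; or when called in the interaction. Other list members named were chosen after their values were seen. The members and lists were chosen with earlier results of these data known. Results of some list members are not reported here by name; the list counts include them.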

Additional observations from a re-analysis of the deposited data

Results flagged for a closer look

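Akr1c14 is the 1 gene whose regional difference after Wnt inhibition differed from that in vehicle by the interaction test, by 2.27 on the log2 scale (edgeR adjusted p 0.00963). Inhibition raised it by 1.35 on the log2 scale in corpus and by 3.61 in antrum, in all 3 lines of each region. The call was lost without inhibited corpus line 8026 (adjusted p 0.0689) and without all libraries of line 8025, 8026 or 8028 (0.262, 0.934 and 0.0689).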

How the results depend on the processing

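The count of 10 regional calls (8 higher in antrum, 2 higher in corpus, 80% higher in antrum) depended on the libraries more than on the scaling. It was 3 with upper quartile scaling (3 and 0, 100% higher in antrum), 3 with total counts (2 and 1, 66.7%), 16 without a low-count filter (14 in antrum), 149 with DESeq2 (102 and 47) and 0 with only the 6 inhibited libraries (0 and 0). RLE scaling gave 13 and a minimum of 1 CPM in 3 libraries gave 10. Leaving out single inhibited libraries gave 0 to 1883 calls (0 to 1227 higher in antrum, 0 to 656 higher in corpus), 1883 being without corpus line 8028. Leaving out both corpus libraries of line 8028 gave 2386 (1493 and 893), all 4 libraries of that line 1895 (1177 and 718), and all 4 of line 8025 or 8026 gave 0 (0 and 0). All 10 calls were kept with RLE scaling, the 1 CPM minimum, DESeq2, the block and each fit without corpus line 8028, and 7 without a low-count filter; 0 were kept without any other single inhibited library.

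Same-numbered lines of the regions deviated from their group means with correlations of 0.277, -0.104 and -0.007, and were not taken as pairs; the labels do not say whether a number marks the same mouse. With the line as a replicate block in all 12 libraries 37 genes were called (22 in antrum, 15 in corpus), and 0 (0 and 0) with the replicate block in the 6 inhibited libraries; the block left the interaction count at 1.

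Interaction calls, 1 with all libraries, were 9 with DESeq2, 0 to 5 without single inhibited libraries, 3 without both corpus libraries of line 8028, 7 without all of line 8028, and 0 without all of line 8025 or 8026. The cause of these changes was not tested. Of the named genes none that was called changed sign. Uncalled genes that did, leaving out single libraries, were Cblif (-0.333 to 0.318), Cyp1a1 (-0.0339 to 0.566), Sox2 (-0.155 to 0.0077), Adh7 (-0.242 to 0.0462) and Stra6 (-0.334 to 0.0919). Leaving out all libraries of a line, Muc5ac (-0.129) and Stra6 (0.0695) did so for line 8026, Lgr5 (-0.0711) and Adh7 (0.127) for line 8025, and Cblif (0.329) for line 8028. With 3 lines a region, serum tied to region and 1 corpus line apart, a p that misses the threshold does not show that a gene was alike in both regions. Genes at or under 3 counts a library could not be compared.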

Other observations

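Several further genes with groups that did not overlap passed without inhibited corpus line 8028 and not with it. Without that library 7.42% of all genes were higher in antrum and 3.97% in corpus. The genes below were chosen after their values were seen, so their adjusted p values without it are no second test. Aqp4, a water channel of the basolateral membrane and a member of the parietal cell list, was at 46.6, 27.1 and 13.6 CPM in corpus lines 8025, 8026 and 8028 and at 12.4, 11.2 and 7.04 CPM in antrum (log2 difference -1.51, SE 0.363; edgeR adjusted p 0.257, and 0.00928 without corpus line 8028). Hopx, a small homeodomain protein, was at 22.0, 11.6 and 9.82 CPM in corpus and 5.81, 5.78 and 5.20 CPM in antrum (-1.37, SE 0.273; 0.145, and 0.0124). In both genes corpus line 8028 was the corpus library nearest to antrum.

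On the antral side, Fgfr2, a receptor for fibroblast growth factors, was at 12.6, 11.9 and 19.7 CPM in antrum and 3.67, 4.84 and 10.6 CPM in corpus (log2 difference 1.20, SE 0.342; edgeR adjusted p 0.344, and 0.0118 without corpus line 8028). Cldn3, a tight junction protein, was at 4.89, 7.61 and 4.93 CPM in antrum and 1.20, 0.985 and 3.99 CPM in corpus (1.48, SE 0.526; 0.456, and 0.0225). Inhba, which encodes the activin A subunit, was at 5.99, 7.87 and 8.13 CPM in antrum and 2.60, 2.18 and 4.55 CPM in corpus (1.23, SE 0.330; 0.307, and 0.0218).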
